A study of Mus musculus with 8 samples.

Results

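The Zfp genes are mouse genes for zinc finger proteins, and the initiation sites (ISs) of DNA replication that lie on them are described here. An IS is a peak in sequencing of short nascent strands (SNS-seq), the RNA-primed DNA pieces that leave an origin when it fires. The members are the ISs that overlapped, by at least 1 bp, a protein-coding gene with a symbol made of Zfp and digits, or the 2 kb on either side of it, in GENCODE M1 on mouse genome build mm9, on the 16 autosomes that remain without 10, 15 and 16. The merged table of WT and Rif1KO held 142 members among 39116 ISs, and the merged table of Rif1KO_shLacZ and Rif1KO_shMcm6 held 392 among 129937. The nearest members to the edge of the 2 kb flank lay 1991 bp (Zfp292, log2 fold change 0.51) and 1751 bp (Zfp329, -0.20) from their gene in the first table and 1980 bp (Zfp68, -0.16) and 1963 bp (Zfp677, -0.26) in the second. The nearest ISs outside it lay 2100 bp (Zfp81, -0.023), 2174 bp (Zfp296, -0.20), 2011 bp (Zfp933, -0.0027) and 2015 bp (Zfp791, 0.098) away.

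The samples came from CH12, a cultured line from a mouse lymphoma of B cells that can switch its antibody class, grown in RPMI with IL4, CD40 and TGF beta stimulation. Each of the 4 groups had 2 SNS-seq libraries from separately thawed vials. WT cells carried intact Rif1, and Rif1KO cells were a clonal derivative without RIF1, a chromatin-bound protein known for its control of replication timing. Rif1KO_shLacZ and Rif1KO_shMcm6 cells were Rif1KO cells infected with a lentivirus for a hairpin against LacZ, the control for infection, or against Mcm6, a subunit of the MCM helicase that is loaded at origins. Rif1 loss is thus shared by both hairpin groups, and no WT cells with a hairpin were sequenced here. Which Rif1KO clone was used is not given in the sources used here, so clone and genotype cannot be told apart. Rif1 and Mcm6 levels cannot be read from SNS-seq, which measures DNA, and neither can the markers of a B cell. The deposited tables give 1 density per condition, the log2 of reads scaled to 1000000 reads in ISs (log2 RPM), made from both libraries together. There was therefore no replicate spread and no test between conditions. The errors given after ± are counting errors of the reads, and the counting intervals come from these. Intervals of shares, rates and medians take ISs or genes as independent draws. None covers the spread between replicates. Reads copied by PCR without molecular identifiers are not independent molecules, and neighbouring ISs are not independent of each other.

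Most Zfp proteins bind DNA through tandem C2H2 zinc fingers, each a short fold in which a pair of cysteines and a pair of histidines hold a zinc ion. Many also carry a KRAB domain, which recruits TRIM28 and the SETDB1 methyltransferase to silence retroelements and imprinted loci. KRAB zinc finger genes spread by tandem duplication and so lie in clusters, in which repeated finger exons and GC-poor stretches with many repeats alternate. Origins in mouse cells are known to be frequent at active promoters and near runs of G on either strand.

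Stretches under members that passed 1.5-fold, or that the rule for named sites took, are printed 5′ to 3′ on the strand of the gene, from the mm9 reference. The first is the finger-coding exon itself, shown by an IS of Zfp575 that was less dense in Rif1KO than in WT. Capitals mark the 8 cysteine and histidine codons of the C2H2 matches that lie whole in the stretch. This 200-base stretch held 22 CpG dinucleotides.

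Zfp575, chr7:25370741-25370940, minus strand: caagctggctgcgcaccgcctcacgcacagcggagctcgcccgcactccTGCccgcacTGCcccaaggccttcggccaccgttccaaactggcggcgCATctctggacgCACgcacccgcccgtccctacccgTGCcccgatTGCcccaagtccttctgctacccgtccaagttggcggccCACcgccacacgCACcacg

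The next stretches hold simple tandem repeats, and lie under the intronic Zfp423 IS with the highest change in Rif1KO by the rule for named sites, and under a pair of intronic ISs of Zfp536 that were denser in Rif1KO_shMcm6 than in Rif1KO_shLacZ. The first Zfp536 stretch, rich in TC and TG units, lies in the member with the largest rise of all. Capitals mark every run of at least 3 G or 3 C, most of which in Zfp423 belong to the repeat units.

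Zfp423, chr8:90337568-90337767, minus strand: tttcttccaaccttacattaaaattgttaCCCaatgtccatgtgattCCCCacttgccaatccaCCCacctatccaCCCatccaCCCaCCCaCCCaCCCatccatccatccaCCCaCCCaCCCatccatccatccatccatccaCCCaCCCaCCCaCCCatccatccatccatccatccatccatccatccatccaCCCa
Zfp536, chr7:38161844-38162043, minus strand: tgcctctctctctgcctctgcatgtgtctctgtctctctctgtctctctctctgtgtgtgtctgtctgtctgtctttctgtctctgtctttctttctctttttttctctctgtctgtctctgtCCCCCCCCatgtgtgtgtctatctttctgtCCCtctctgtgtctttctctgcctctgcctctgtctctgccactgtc
Zfp536, chr7:38522070-38522269, minus strand: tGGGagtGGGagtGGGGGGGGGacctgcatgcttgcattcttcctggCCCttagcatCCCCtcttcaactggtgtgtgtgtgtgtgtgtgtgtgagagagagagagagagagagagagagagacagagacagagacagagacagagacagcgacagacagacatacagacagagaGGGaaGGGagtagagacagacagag

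The last stretch is from the intronic Zfp334 IS with the largest loss in Rif1KO_shMcm6, again with runs in capitals. It held scattered G and C runs and ended in a short tail of CCCT units.

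Zfp334, chr2:165210300-165210499, minus strand: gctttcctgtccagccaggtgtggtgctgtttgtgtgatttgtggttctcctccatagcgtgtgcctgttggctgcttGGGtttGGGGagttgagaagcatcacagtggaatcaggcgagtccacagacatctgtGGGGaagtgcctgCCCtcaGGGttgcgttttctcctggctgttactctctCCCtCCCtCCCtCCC

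GENCODE M1 held 317 Zfp genes (313 symbols) on the 16 autosomes. The translated coding sequences had a median of 10 C2H2 matches, with 37 in the gene with the most and none in 14. A KRAB match, found with a sequence pattern of this work that can miss diverged domains, was present in 164. Joined over gaps of at most 250 kb, 151 of the genes formed 21 clusters of 3 or more on 9 chromosomes, and 108 of the KRAB genes were in them. Chromosome 7 alone carried 86 Zfp genes, of which 67 were in 9 clusters.

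An IS in at least 1 table was found on 158 of the 317 genes, 67 in both tables, 14 in the WT and Rif1KO table alone and 77 in the hairpin table alone, and none was found on 159. A smaller share of Zfp genes than of other genes held an IS. In the WT and Rif1KO table, 25.6% of Zfp genes (Wilson 95% interval 21.1 to 30.6) and 32.7% of the other 18585 protein-coding genes (32.0 to 33.4) held an IS. In the hairpin table these shares were 45.4% (40.0 to 50.9) and 53.7% (52.9 to 54.4). Per Mb of gene with flanks there were 14.6 ISs on Zfp genes (Poisson 95% interval 12.3 to 17.2) and 16.1 on other genes in the first table, and 40.3 (36.4 to 44.4) and 48.8 in the second. The interval holds the rate of other genes in the first table but not in the second. The olfactory and vomeronasal receptor genes (Olfr and Vmn), another large family in clusters, had 5.77 and 31.3. The related zinc finger families Zbtb, Zscan, Zkscan and Klf had 20.1 (14.3 to 27.4) and 51.9 (42.3 to 63.1). The 2 tables differ in depth and in peak calls, so their densities were not compared with each other.

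Among Zfp genes, those with the KRAB match carried fewer ISs. In the WT and Rif1KO table, 27 of 164 KRAB genes (16.5%, 11.6 to 22.9) and 54 of 153 other Zfp genes (35.3%, 28.2 to 43.1) held an IS, and these intervals did not overlap. An IS within 1 kb of their start was found at 9 KRAB genes and at 31 of the others. In the hairpin table the counts were 66 KRAB genes (40.2%, 33.0 to 47.9) and 78 others (51.0%, 43.1 to 58.8), with intervals that overlapped. An IS within 1 kb of their start was found there at 27 KRAB genes (16.5%, 11.6 to 22.9) and 43 others (28.1%, 21.6 to 35.7). These intervals overlapped too. Per Mb of gene with flanks there were 9.87 ISs on KRAB genes (6.83 to 13.8) and 17.2 on the others (14.1 to 20.8) in the first table, and 35.7 (29.7 to 42.6) and 43.1 (38.2 to 48.6) in the second. KRAB genes had a median length of 15.6 kb and the others 12.8 kb, but with flanks they covered 3.45 Mb and 6.33 Mb in all. The ISs of KRAB genes had a median GC content of 47.0% in the first table and those of the others 51.9%. The authors kept reads that aligned to 1 place in the genome, and its part in the low counts on near-identical gene copies was not tested.

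The clusters differed widely, as the plot of ISs in each cluster shows. In the WT and Rif1KO table, 8 of the 21 clusters held no member, and 4 held none in the hairpin table. The cluster from Zfp712 to Zfp273 on chromosome 13 (chr13:67139530-67927937), the largest with 19 genes, held 0 and 8 members. A count of 0 says that no peak was called on these genes, not that no strand started there. The 15 KRAB genes from Zfp677 to Zfp946 on chromosome 17 (chr17:21520712-22593656) held 6 and 15 members. The 14 genes from Zfp84 to Zfp146 on chromosome 7 (chr7:30553571-30954746) held the most, 8 and 16. The densest was the short cluster of 6 genes without a KRAB match from Zfp628 to Zfp580 (chr7:4866819-5005324), with 5 and 11 members, or 82.5 and 182 per Mb of gene with flanks.

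**Figure D1:**
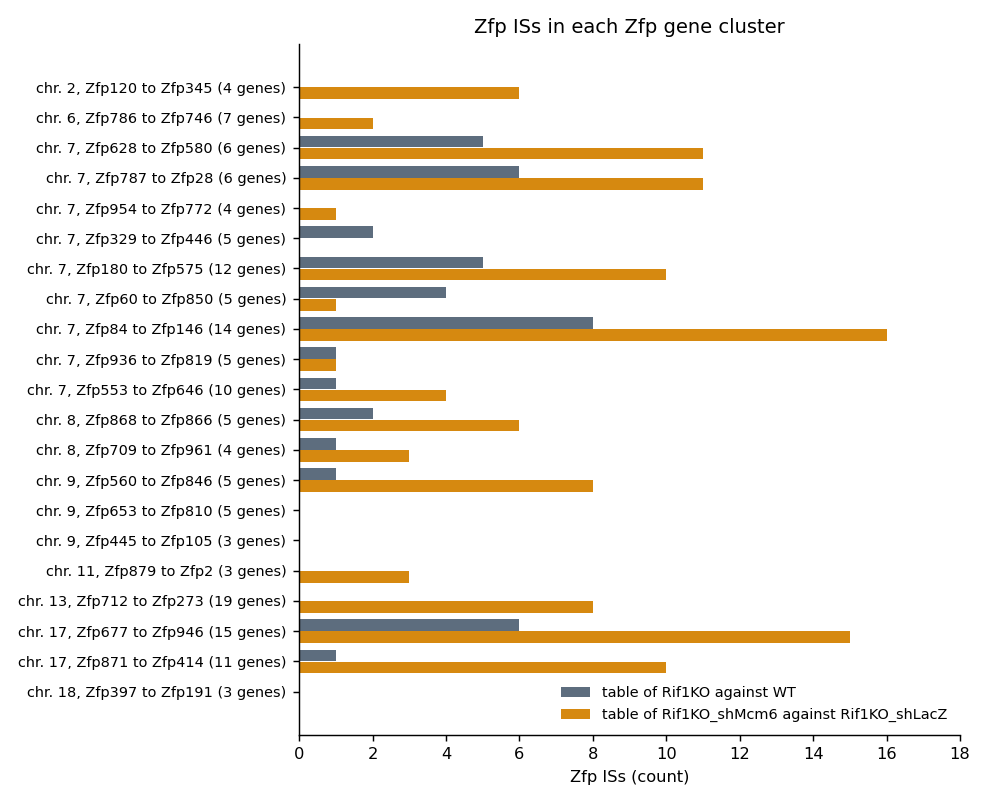
Number of Zfp ISs (horizontal axis, count) in each of the 21 clusters of Zfp genes (rows, with chromosome, first and last gene and number of genes), for the table of Rif1KO against WT (grey) and of Rif1KO_shMcm6 against Rif1KO_shLacZ (orange). The cluster from Zfp84 to Zfp146 holds the most, 8 and 16, and the 19 genes on chromosome 13 hold 0 and 8.

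A larger share of members than of the ISs of other genes lay at promoters. Within 1 kb of a protein-coding transcription start site (TSS) lay 42 of 142 members (29.6%, 22.7 to 37.5) and 91 of 392 (23.2%, 19.3 to 27.6). At the start of their own Zfp gene were 41 (28.9%) and 88 (22.4%), and of the ISs of other genes 14.6% and 11.3% were at their own gene's start. Introns held 72 and 223 members, coding exons 10 and 35, flanks 13 and 35, and UTRs 6 and 11. The share of genes with an IS at their start was alike, 12.6% (9.41 to 16.7) of Zfp genes and 10.8% of the others in the first table and 22.1% (17.9 to 27.0) and 22.7% in the second. Introns held 50.7% of members and 70.8% of the ISs of other genes in the first table, and 56.9% and 73.1% in the second.

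The genes with the most ISs were long, lay outside the clusters and did not carry the KRAB match. Zfp423, a cofactor of EBF and SMAD proteins with 27 finger matches, had 7 and 17 ISs. Zfp521, its close relative and a regulator of blood progenitors, had 6 and 14. Zfp652, a repressor, had 7 and 12, and Zfp710 had 7 and 7. Zfp609, a partner of the cohesin loader, had 4 and 7. Zfp536, a repressor of neuronal differentiation, and Zfp407 had 14 and 13 ISs in the hairpin table and 2 and 0 in the other. The hairpin table held 129937 ISs in all and the other 39116. The number of ISs on a gene went with its length across the 317 genes (Spearman's rho 0.327 and 0.418, a description over genes that share libraries). The 106 longest genes held 43 of the 81 genes with an IS in the first table.

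By summed reads Zfp423 also led, with 246 RPM in WT, 252 in Rif1KO, 153 in Rif1KO_shLacZ and 140.2 in Rif1KO_shMcm6. Zfp652 followed with 198 in WT, 198 in Rif1KO, 123 in Rif1KO_shLacZ and 112 in Rif1KO_shMcm6. Zfp516, an activator of brown fat genes, had 182 RPM in WT and 153 in Rif1KO, a log2 fold change of -0.25 ± 0.084 (counting error). Zfp467, a factor of the bone marrow stroma, had 171 in WT and 180.4 in Rif1KO. In the hairpin table Zfp827, which recruits the NuRD complex to telomeres, had 100.4 RPM in Rif1KO_shLacZ and 93.8 in Rif1KO_shMcm6. Summed over all members, reads were 0.438% of all IS reads in WT, 0.415% in Rif1KO, 0.336% in Rif1KO_shLacZ and 0.331% in Rif1KO_shMcm6. Members were 0.363% of the ISs of the first table and 0.302% of those of the second, so read shares were not compared between the tables.

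Loss of RIF1 was compared first, Rif1KO against WT. No member was denser by more than 1.5-fold in Rif1KO, where 0.945% of all 31414 ISs on these autosomes were, and 7 of 142 were less dense (4.93%, 2.41 to 9.83), where 1.35% of all ISs and 2.03% of the ISs of other genes were. Of the 39 ISs on the related Zbtb, Zscan, Zkscan and Klf genes 2 were less dense (5.13%, 1.42 to 16.9), an interval that holds the share of the Zfp members. The upper limit of the Wilson interval on the count of 0 was 2.63%, and the share over all ISs lies inside that interval. The less dense share was 2.74% (0.755 to 9.45) among the 73 members called in both conditions and 2.78% (0.949 to 7.85) among the 108 at or above the lower quartile of density in the table. The median log2 fold change was -0.062 (interval of the median -0.13 to -0.015) over the members, 0.0077 over all ISs and -0.029 over the ISs of other genes, and 85 of 142 members were below 0. Densities of members ranged from 3.50 to 7.16 log2 RPM in WT and from 3.31 to 7.26 in Rif1KO, and Pearson's r between the conditions was 0.930 over the members and 0.910 over all ISs.

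The 7 less dense members lay on 7 genes, and 6 of them were on chromosome 7. The exception was the largest change, the promoter IS of Zfp644 on chromosome 5 (chr5:107125215-107125796), a protein that recruits the G9a and GLP methyltransferases. It had 4.73 log2 RPM in WT (89 reads) and 3.39 in Rif1KO (39 reads), a log2 fold change of -1.34 ± 0.28. The other 3 ISs of Zfp644, in introns, had log2 fold changes of -0.15 ± 0.28, 0.19 ± 0.29 and 0.047 ± 0.27. The intronic values were within their counting error of 0. Their 95% counting intervals were wide, -0.70 to 0.40, -0.38 to 0.75 and -0.48 to 0.57. A loss in the introns can therefore not be told from none.

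On chromosome 7 the promoter IS of Zfp260, known as a regulator of heart genes, had 4.11 log2 RPM in WT and 3.31 in Rif1KO (-0.80 ± 0.30). An IS in the flank of Zfp667 had 4.28 and 3.59 (-0.68 ± 0.28), and an intronic IS of Zfp710 had 3.98 and 3.31 (-0.67 ± 0.31). Coding exon ISs of Zfp575 (5.33 in WT and 4.72 in Rif1KO, -0.61 ± 0.19) and of Zfp787 (4.45 and 3.83, -0.61 ± 0.26) both touched finger-coding DNA. The Zfp575 IS also touched the flank of Ethe1, a mitochondrial sulfur dioxygenase, and so cannot be given to Zfp575 alone. The promoter IS of Zfp771 had 5.30 and 4.70 (-0.60 ± 0.19). The counting interval lay below 0 for all 7, and 5 of them were called as a peak in WT alone and the other 2 in both conditions. Of the 423 ISs of the table that were less dense by over 1.5-fold, 85.6% were called in WT alone.

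Among the better covered members the lowest were Zfp575, Zfp771 and a promoter IS of Zfp579 (5.16 log2 RPM in WT and 4.66 in Rif1KO, -0.51 ± 0.20), all on chromosome 7. The highest were an intronic IS of Zfp423, printed with its repeat (5.54 in WT and 5.92 in Rif1KO, 0.38 ± 0.15), an intronic IS of Zfp735 (5.01 and 5.36, 0.35 ± 0.18) and the promoter IS of Zfp788 (4.70 and 5.05, 0.35 ± 0.20). Of these 3, only the counting interval of the Zfp423 IS lay above 0. Over all members 12 had a counting interval below 0 and 2 above it. Together these were 9.86% of members, where 6.11% of all ISs had an interval without 0.

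**Figure D2:**
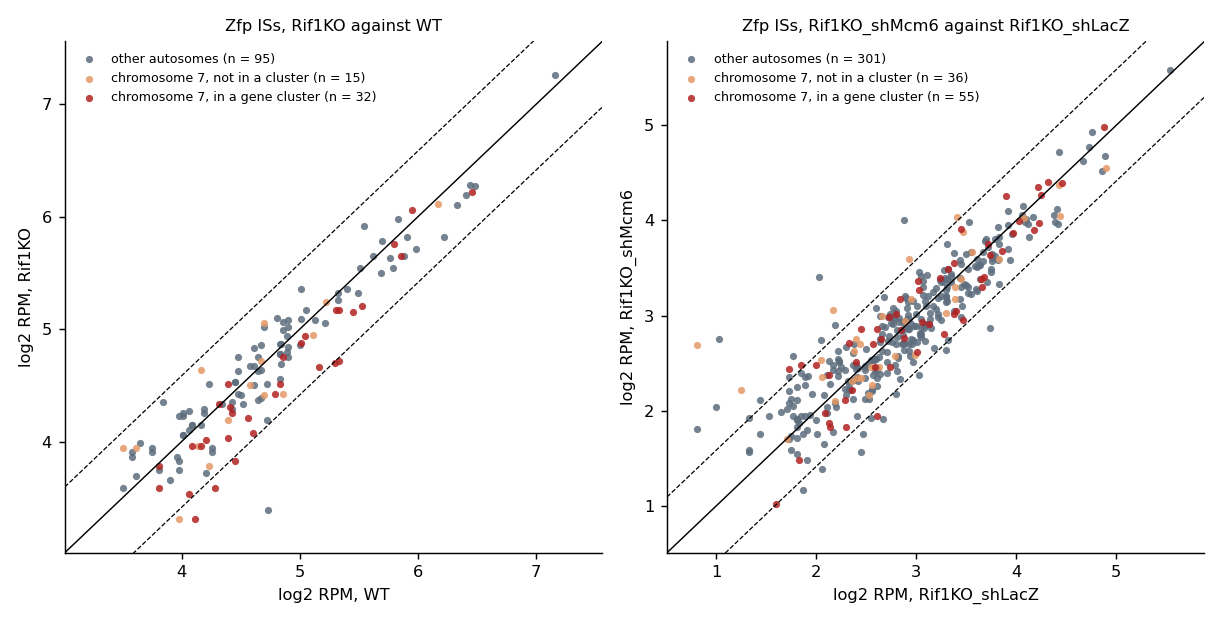
SNS density of each Zfp IS in log2 RPM, control condition on the horizontal and Rif1KO or Rif1KO_shMcm6 on the vertical axis, for the 142 members of the first table (left) and the 392 of the second (right). The solid line marks equal density and the dashed lines 1.5-fold, and red points are members in chromosome 7 clusters, of which 29 of 32 lie below the solid line on the left.

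Members on chromosome 7 had a lower median change in Rif1KO than members elsewhere. This split by chromosome was chosen after the values were seen, which its intervals do not take into account. Its 47 members had a median log2 fold change of -0.19 and 38 were below 0, while the 95 members on other autosomes had a median of 0.00028 (-0.059 to 0.059) with 47 below 0. Off chromosome 7 only the Zfp644 promoter IS was less dense by over 1.5-fold (1.05%, against 1.30% of all ISs there). Within chromosome 7 the 32 members in clusters had a median of -0.21 (-0.35 to -0.13), with 29 below 0 (90.6%) and 5 less dense by over 1.5-fold (15.6%, 6.86 to 31.8). Of all ISs on chromosome 7, 56.6% were below 0 and 2.01% less dense, and of the ISs on its other genes 60.2% and 1.97%. The 15 that were not in clusters had -0.082 (-0.29 to 0.32). All 8 chromosome 7 clusters with a member had a median below 0, and in 5 of them every member was below 0, though 2 of these 5 held 1 member and another held 2. Of the 5 such clusters on other chromosomes, 2 had a median below 0.

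The ISs between these genes were lower too. The 50 ISs inside the spans of the chromosome 7 clusters that touched no Zfp gene had a median of -0.16 (-0.23 to -0.072), with 38 below 0. None of the 50 was less dense by over 1.5-fold and 1 was denser. The 1886 ISs of the whole chromosome had a median of -0.034 and the 1068 on its other genes -0.055. In the cluster from Zfp84 to Zfp146, 7 of the 8 members were below 0. The IS of Zfp420 there had 6.46 log2 RPM in WT and 6.22 in Rif1KO (-0.23 ± 0.12), and that of Zfp84 had 4.60 and 4.08 (-0.52 ± 0.24). The exception was the IS of Zfp568, the silencer of a placental Igf2 transcript, with 4.39 and 4.51 (0.13 ± 0.23). The chromosome 17 cluster from Zfp677 to Zfp946 had a median of 0.18 over its 6 members, from -0.064 to 0.29.

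Over all members, the 43 in clusters had a median of -0.16 (-0.23 to -0.093) and the 99 outside them -0.015. This difference of -0.15 (-0.24 to -0.053) turned to 0.12 (-0.10 to 0.35) without chromosome 7, with 11 members left in clusters. It was -0.090 (-0.26 to 0.078) over members called in both conditions, and -0.13 both at or above the lower quartile of density (-0.28 to 0.019) and without the cluster with the most members (-0.27 to 0.017), so these intervals also hold 0.

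**Figure D3:**
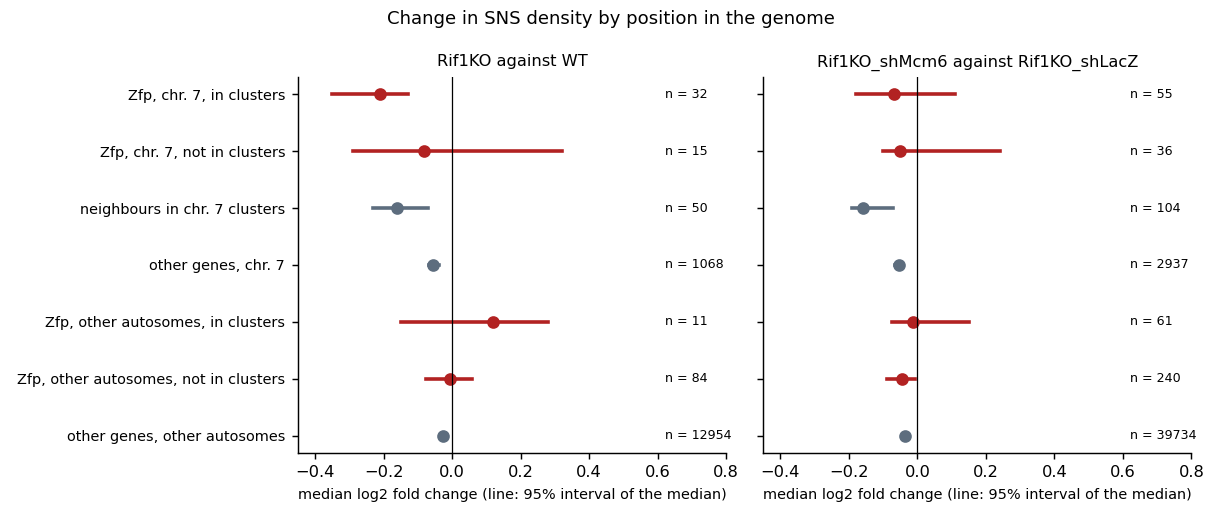
Median log2 fold change (points) with its order-statistic 95% interval (lines) for Zfp ISs (red) and other ISs (grey) by chromosome and cluster, in Rif1KO against WT (left) and Rif1KO_shMcm6 against Rif1KO_shLacZ (right). On the left the Zfp ISs of chromosome 7 clusters sit at -0.21 and their non-member neighbours at -0.16, and Zfp ISs of other autosomes lie near 0 outside clusters.

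Base composition moved with the change. The 71 members with a GC content at or above the member median of 51.3% had a median log2 fold change of -0.16 (-0.22 to -0.083), and the 5631 ISs of other genes above the same GC content had -0.10. The 71 members below it had 0.024, and so had the 8391 ISs of other genes below it. Members of chromosome 7 clusters had a median GC content of 52.9% and their neighbours 54.3%. The part of GC content in the chromosome 7 values was not tested.

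Promoter ISs had lower medians than intronic ISs, on Zfp genes and on other genes. The 41 at the start of a Zfp gene had a median of -0.14 (-0.22 to -0.023) with 3 less dense by over 1.5-fold, and the 2054 at the start of other genes had -0.13 with 6.18% less dense. The 72 intronic members had -0.028 (-0.082 to 0.051), and intronic ISs of other genes had -0.0008.

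Finger-coding DNA made up 2.15% of the Zfp genes with flanks, 209 kb, and was touched by 7 members (4.93%) in the WT and Rif1KO table. An IS counted when it touched this DNA by at least 1 bp, so the share of members and the share of bases are unlike measures. Whether ISs were frequent on this DNA was not tested. All 7 had values below 0 in Rif1KO against WT, where 64.7% of coding exon and 74.4% of promoter ISs of other genes did, and for 4 of the 7 the 95% counting interval holds 0. They lay on Zfp575, Zfp787, Zfp579, Zfp428 (5.45 log2 RPM in WT and 5.15 in Rif1KO, -0.30 ± 0.17), Zfp384 (-0.17 ± 0.17), Zfp523 (-0.14 ± 0.15) and Zfp628 (-0.10 ± 0.19), and 5 of these genes are on chromosome 7. The 44 promoter and coding exon members that touched no finger DNA had a median of -0.12. In the hairpin table, 17 members touched it, from -0.61 ± 0.20 at Zfp236 to 0.41 ± 0.17 at a second exon IS of Zfp628. The IS of Zfp575 there had 2.33 log2 RPM in Rif1KO_shLacZ and 2.71 in Rif1KO_shMcm6 (0.38 ± 0.18), and that of Zfp787 had 3.24 and 3.40 (0.17 ± 0.14).

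MCM6 depletion in cells without RIF1 was compared next, Rif1KO_shMcm6 against Rif1KO_shLacZ. Denser by more than 1.5-fold were 18 of 392 members (4.59%, 2.92 to 7.14), where 4.82% of all 108860 ISs were, and less dense were 11 (2.81%, 1.57 to 4.95), where 1.5% of all ISs and 1.88% of the ISs of other genes were. The Zbtb, Zscan, Zkscan and Klf genes had 3.96% less dense (1.55 to 9.74) and a median of -0.087. The median log2 fold change over the Zfp members was -0.039 (-0.072 to -0.0063), against -0.01 over all ISs and -0.037 over the ISs of other genes. The share of denser members was near that of the table. The interval on the share of less dense members began just above the share over all ISs and held that of the other genes. Among the 245 members called in both conditions, 1.22% were denser and 1.22% less dense (0.417 to 3.54 for each). Among the 315 at or above the lower quartile of density in the table, 2.22% were denser (1.08 to 4.52) and 1.59% less dense (0.680 to 3.66). Densities ranged from 0.81 to 5.54 log2 RPM in Rif1KO_shLacZ and from 1.02 to 5.58 in Rif1KO_shMcm6.

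The 18 denser members lay on 14 genes or gene pairs and 14 of them were intronic. None of the 18 overlapped an IS of the WT and Rif1KO table, which 113 of all 392 members did (28.8%) and 233 of the 5248 denser ISs of the whole table. Of the 18, 15 were called as a peak in Rif1KO_shMcm6 alone, and of the 5248 denser ISs of the whole table, 80.5% were. Their median density was 1.75 log2 RPM in Rif1KO_shLacZ and 2.63 in Rif1KO_shMcm6, while the members within 1.5-fold had 2.91 and 2.89.

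Zfp536 held 5 of the 18, all in introns. Its 14 ISs had a median log2 fold change of 0.32 (-0.084 to 0.89), and the summed density of the gene was 108 RPM in Rif1KO_shLacZ and 134 in Rif1KO_shMcm6 (0.31 ± 0.040). The IS at chr7:38161624-38162261, printed first, had 0.81 log2 RPM in Rif1KO_shLacZ (37 reads) and 2.69 in Rif1KO_shMcm6 (152 reads), a log2 fold change of 1.87 ± 0.26. The neighbouring IS had 1.25 and 2.22 (0.97 ± 0.25), and the other 3 had 0.89 ± 0.18, 0.66 ± 0.14 and 0.63 ± 0.12. The strongest Zfp536 IS in Rif1KO_shLacZ, with 4.08 log2 RPM there and 4.03 in Rif1KO_shMcm6, did not move beyond its counting error (-0.051 ± 0.11), and 4 of the 14 were below 0. In the WT and Rif1KO table the gene had 2 ISs, with log2 fold changes in Rif1KO of -0.19 ± 0.25 and -0.46 ± 0.27, whose 95% counting intervals hold 0.

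**Figure D4:**
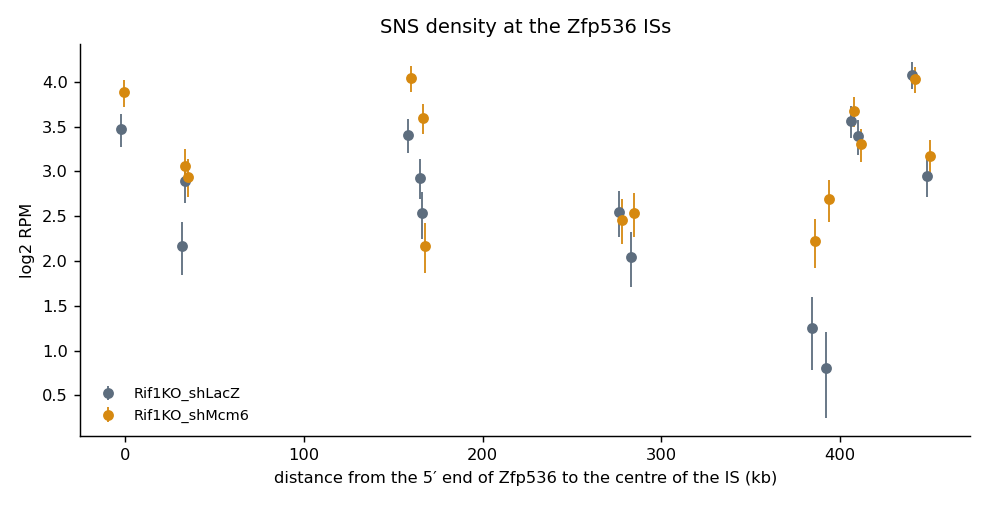
SNS density in log2 RPM of the 14 Zfp536 ISs in Rif1KO_shLacZ (grey) and Rif1KO_shMcm6 (orange) against the distance in kb from the 5′ end of the gene to the centre of the IS, with 95% counting intervals as bars and the points of each pair set slightly apart. A pair of weak ISs near 385 and 393 kb shows the largest rises, from 1.25 to 2.22 and from 0.81 to 2.69.

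The denser Zfp536 ISs held more simple repeat than the rest of the gene's ISs. In all 5 at least 20% of bases lay in perfect tandem repeats, units of 1 to 6 bases over at least 12 bases, with 28.2% in the highest. In the other 9 the share ran from 2.25% to 12.4%. Over all 18 denser members the median share was 15.4%, over the 11 less dense members 3.19%, and over the rest 3.51%. The highest share was 28.2% among the denser members and 36.9% among the less dense, in an intronic IS of Zfp423. That IS was the only less dense member with a share of at least 25%. Of the 14 members with a share of at least 25%, 3 were denser by over 1.5-fold (21.4%), and of the 378 below it 15 were (3.97%). The same split over the whole table gave 26.7% of 3681 ISs and 4.05% of 105179. In Rif1KO against WT it gave 1.0% of 698 and 0.944% of 30716. The share and its limit of 25% were chosen after the printed sequences had been seen, and how reads over repeats were kept or lost in alignment was not tested.

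Beside Zfp536, the largest rise was in an IS shared by the introns of Zfp456 and Zfp953 in the chromosome 13 cluster, from 1.03 to 2.75 log2 RPM (1.72 ± 0.25). An intronic IS of Zfp454 rose from 2.03 to 3.41 (1.38 ± 0.18), and one of Zfp407 from 2.88 to 4.0 (1.12 ± 0.14), while the other 12 of Zfp407 lay between -0.36 and 0.36. The promoter IS of Zfp358 rose from 1.0 to 2.04 (1.04 ± 0.27), and an intronic IS of Zfp101 from 0.81 to 1.81 (1.0 ± 0.29). Promoter ISs of Zfp217, a corepressor subunit amplified in tumours, rose from 1.73 to 2.36 (0.63 ± 0.22), and of Zfp516 from 2.05 to 2.74 (0.70 ± 0.19). The rest, on Zfp286, Zfp791, Zfp78, Zfp600, Zfp583 and Zfp53, rose by 0.60 to 0.81. Of these genes Zfp454, Zfp101, Zfp78, Zfp583 and Zfp53 are in clusters, and so is the pair Zfp456 and Zfp953.

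The 11 less dense members lay on 11 genes, 4 at promoters and 5 in introns. The lowest was the printed intronic IS of Zfp334, with 2.45 log2 RPM in Rif1KO_shLacZ and 1.57 in Rif1KO_shMcm6 (-0.88 ± 0.22). At a second start of Zfp516 an IS fell from 3.74 to 2.87 (-0.87 ± 0.14), downstream of the promoter IS that rose. Promoter ISs of Zfp395 fell from 2.67 to 1.91 (-0.75 ± 0.20), of Zfp703, a repressor amplified in breast tumours, from 2.47 to 1.76 (-0.71 ± 0.21), and of Zfp787 from 2.61 to 1.95 (-0.67 ± 0.20). The others were on Zfp58, Zfp521, Zfp664, Zfp202, Zfp423 and Zfp236, from -0.70 to -0.61. Of the 11, 8 were called in Rif1KO_shLacZ alone and 3 in both conditions, and 3 overlapped an IS of the other table. Of the 1628 less dense ISs of the whole table, 63.0% were called in Rif1KO_shLacZ alone and 398 overlapped the other table. Just within 1.5-fold, the promoter IS of Zfp384, a factor fused to other genes in B cell leukaemia, had 3.32 and 2.74 (-0.58 ± 0.15).

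By gene type, the members with the higher median were those on KRAB genes. The 123 members on KRAB genes had a median log2 fold change of 0.029 (-0.039 to 0.11) and the other 269 had -0.058 (-0.099 to -0.024), with 9 in each set denser by over 1.5-fold (7.32% and 3.35%) and 2 and 9 less dense (1.63% and 3.35%), beside 4.82% and 1.5% of all ISs. The intervals of these medians overlapped. The 116 in clusters had -0.020 and the 276 outside -0.049. The 55 members of chromosome 7 clusters had -0.067 (-0.18 to 0.11), the 104 neighbours in those spans -0.16 (-0.19 to -0.070), and the 301 members off chromosome 7 -0.033. Promoter members had -0.074 (88 ISs) and intronic ones -0.026 (223 ISs).

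Zfp genes of known function were listed by role. Of 15 transcription regulators 13 are on these autosomes and 8 and 11 held an IS in the 2 tables, with 26 and 63 ISs and medians of -0.067 and -0.056. Of these ISs none passed 1.5-fold in Rif1KO against WT, where 0.945% of all ISs were denser and 1.35% less dense. In Rif1KO_shMcm6 against Rif1KO_shLacZ 1 was denser and 2 less dense, where 4.82% and 1.5% of all ISs were, and nothing can be read from counts this small. Summed over its ISs, Zfp384 had 104 RPM in WT and 90.2 in Rif1KO (-0.20 ± 0.11), and 19.1 in Rif1KO_shLacZ and 13.0 in Rif1KO_shMcm6 (-0.55 ± 0.11). Zfp462, a heterochromatin protein, had 82.7 in WT and 95.6 in Rif1KO (0.21 ± 0.12), and 69.7 in Rif1KO_shLacZ and 80.7 in Rif1KO_shMcm6 (0.21 ± 0.050). Zfp143, a promoter-bound activator, held 2 ISs in the hairpin table alone, and Zfp281 and Zfp335 held none.

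Of 7 KRAB proteins of imprinting and retroelement control, 8 annotated genes because 1 symbol is listed at 2 places, 2 genes held an IS in the first table and 3 in the second. Zfp57, the guardian of imprinted methylation, had 3 ISs in the hairpin table with 25.5 RPM in Rif1KO_shLacZ and 27.1 in Rif1KO_shMcm6 (0.087 ± 0.084). Zfp445, with a like role, and Zfp809, a silencer of integrated retroviruses, held none. Of 8 proteins of RNA, translation, ubiquitin or the spindle, 7 are on these autosomes and 3 and 5 held an IS. Zfp318, which B cells need to make IgD, had 28.7 RPM in WT and 25.8 in Rif1KO (-0.15 ± 0.21), and 28.5 in Rif1KO_shLacZ and 30.1 in Rif1KO_shMcm6 (0.081 ± 0.080).

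The partners of the KRAB proteins gave few values. Of 18 genes listed, 14 are on these autosomes, 7 and 11 of them held an IS, and of their 16 and 31 ISs none and 1 were denser by over 1.5-fold and 1 and 2 less dense, too few to set against the shares of all ISs (0.945% and 4.82% denser, 1.35% and 1.5% less dense). Trim28, the corepressor that KRAB binds, and Setdb1, its methyltransferase, held none. Chd4, the NuRD remodeller, had 106 RPM in WT and 72.5 in Rif1KO (-0.55 ± 0.12), and 29.3 in Rif1KO_shLacZ and 32.8 in Rif1KO_shMcm6 (0.17 ± 0.078). Mphosph8, of the HUSH silencing complex, had 41.5 RPM in WT and 43.0 in Rif1KO (0.050 ± 0.17), and 6.36 in Rif1KO_shLacZ and 3.77 in Rif1KO_shMcm6 (-0.75 ± 0.20).

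Of the sites common to both tables, 102 pairs of members overlapped 1 to 1. The contrasts use different libraries. The log2 fold changes of the pairs had a Spearman's rho of 0.102, against 0.117 over the 25514 pairs of all ISs, and both are descriptions over sites that share libraries. Of the 102 pairs, 41 were below 0 in both contrasts, 18 above 0 in both, 28 above 0 in Rif1KO against WT alone and 15 above 0 in Rif1KO_shMcm6 against Rif1KO_shLacZ alone.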

How the data were processed

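SNS-seq reads of the 8 libraries were processed by the authors. Per the labels and the study's methods, reads were trimmed with Trim Galore 0.6.4 (cutadapt 2.6) and aligned to mm9 with Bowtie 1.2.3, keeping unique alignments. Peaks were called per library with MACS at q 0.01 without an input library, kept where both replicates had one, filtered to those lying in clusters of peaks (the ISs), and merged between the conditions of a contrast with bedtools. The deposited tables hold, by the authors, the log2 RPM of each merged IS with both replicates in 1 value per condition, and a class column of their fold changes that was not used. Whether an IS was called in a condition was read from the peak names in these tables, and the deposited IS lists per condition gave no value of the text.

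Each value was a whole number of reads within 1e-06 in 100.0% of cases, which gave 3350255 reads in ISs in WT, 3724571 in Rif1KO, 21071351 in Rif1KO_shLacZ and 23602750 in Rif1KO_shMcm6, with medians of 73.0, 82.0, 141 and 160.0 per IS. Counting errors of log2 fold changes were computed from these reads. The threshold was 1.5-fold. Shares have Wilson intervals, rates per Mb Poisson intervals and medians order-statistic intervals, all at 95%. The interval of a difference of medians is approximate and symmetric, built from the widths of the order-statistic intervals of the sets compared. Median differences of the tables were not removed, and each table was read alone.

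Genes and contexts were taken from GENCODE M1. C2H2 and KRAB matches were searched in translated coding sequences. The rule for named items took the 3 highest and 3 lowest ISs of each contrast among members at or above the median density of the members, the 5 genes with the most ISs and with the most control reads, genes listed by role, the 3 clusters with the most members and KRAB partner genes. The other ISs past 1.5-fold, the clusters on chromosome 13 and from Zfp628 to Zfp580, ISs on finger-coding DNA and the further genes named beside them were chosen after their values were seen. The sets split by chromosome 7 were also chosen after their values were seen. Chromosomes 10, 15 and 16 were left out by the rule for members. The members, gene lists and rules were chosen with earlier results of these data known. Some sequences are not reported here. Python 3.11.15, NumPy 2.4.6, pandas 2.3.3, SciPy 1.17.1, Biopython 1.88 and Matplotlib 3.10.9 were used, and the calculations were tested on simulated data.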

Additional observations from a re-analysis of the deposited data

How the results depend on the processing

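No paired analysis was possible because both libraries of a condition share 1 density for each IS, and for the same reason no library could be left out. Of 106 alternatives, 88 lay within the interval of the value reported, and 10 of the 106 were chosen after seeing the data. With a 2-fold threshold the share of less dense members in Rif1KO against WT was 0.704%, and in Rif1KO_shMcm6 against Rif1KO_shLacZ the shares were 1.53% denser and 0% less dense. With a log2 threshold of 0.32 they were 7.04% denser and 14.1% less dense in the first contrast and 13.3% and 13.5% in the second. Within that interval but lower by over 1.5 times, the less dense share in the first contrast was 2.78% (0.949 to 7.85) for members at or above the lower quartile of density and 2.74% (0.755 to 9.45) for members called in both conditions, and these intervals hold the 1.35% of all ISs. In the second contrast, the density limit gave 2.22% denser and 1.59% less dense, members called in both conditions 1.22% denser and 1.22% less dense, and folds on log2(RPM + 1) 0.765% less dense. Its median was -0.11 over members with exactly 1 overlapping IS in the other merged table. Without chromosome 7, chosen after seeing the data, Rif1KO against WT had 1.05% less dense members, a median of 0.00028 (-0.059 to 0.059) and a clustered minus other difference of 0.12 (-0.10 to 0.35, with 11 members in clusters), both with the sign turned and with intervals that hold 0. The share of members near a TSS was 40.8% in the first table and 31.1% in the second within 2 kb, and 16.1% in the second within 0.5 kb. Causes other than the construction of each alternative were not tested. Depth limits weak ISs most, and the fewest reads of a member were 37, in Rif1KO and in Rif1KO_shLacZ.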
